A study of Mus musculus with 21 samples.

Results

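The genes described here are the p53 family and the known p53 target genes on a mouse expression array, 32 genes chosen by name and found by their gene name among the non-control probes. All 32 were on the array, as 45 of its 39429 probes and 32 of its 30222 names. Of these, 31 had a lead probe bright enough to test. Eda2r, the ectodysplasin A2 receptor, was not well above background on any array with either of its probes and was not tested. The lead probe of a gene is the one with the highest mean level over all arrays.

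RNA came from liver and liver tumours of mice on a C57BL/6J background and was read on 21 one-colour arrays. The KO tumours (6 arrays, 5 mice) were from untreated Trp53 knockout mice and carry the combined label of hepatocellular and cholangiocellular carcinoma. The KO livers (4 mice) were labelled as liver and came from untreated Trp53 knockout mice. The DEN tumours (7 arrays, 5 mice) were labelled hepatocellular carcinoma and arose in mice with wild-type Trp53 that received N-nitrosodiethylamine (DEN), a liver carcinogen, as 10 µg per g of weight into the peritoneum at day 15. The WT livers (4 mice) were from untreated wild-type mice. Ages, sexes, the exons of Trp53 that were deleted and the cell type of the deletion are details not given in the sources used here. How many cells of the knockout tissue keep an intact gene was not tested. Tumours of 1 mouse were averaged, mice being read from the sample titles, and p-values measure the spread between these mice.

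p53, the product of Trp53, is a transcription factor that is stabilised by DNA damage and other stress and switches on genes of cell cycle arrest, cell death and DNA repair. Mdm2 and Mdm4 bind it and hold it in check, and Mdm2 is also one of its targets, which closes a feedback loop. p63 and p73 are relatives that bind similar DNA sites, and many of the target genes also answer to other transcription factors.

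The Trp53 probe is shown because every comparison below rests on the state of this gene, and the Trp63 lead probe because its signal set it apart from the other Trp63 probes. Both are 60-base probes of the array design, given with their mm9 positions on the plus strand, and capitals mark a run of 6 CAG repeats.
Trp53 probe, chr11:69404204-69404263: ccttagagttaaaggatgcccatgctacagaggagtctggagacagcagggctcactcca
Trp63 lead probe, chr16:25871159-25871218: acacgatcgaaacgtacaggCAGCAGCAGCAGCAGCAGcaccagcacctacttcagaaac

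Stretches before the transcription starts of Cdkn1a and Ccng1 are shown because they held the p53 response element by sequence. The search covered the 250 bases before each RefSeq start (build GRCm38.p6) and used the consensus p53 element, 2 decamers 0 to 13 bases apart. The element reads the same on both strands. With at most 1 mismatch it was found in 2 of the 33 windows of the 23 genes of this group that the promoter table holds (6.06%), and in 166 of all 32851 windows (0.505%). Capitals mark the decamers. In the Ccng1 window the element, with 1 mismatch, lay at bases -195 to -176 from the start. A Cdkn1a window held overlapping elements, at -73 to -42 with no mismatch and at -51 to -32 with 1 mismatch. A match is a description of the letters only.
Ccng1, chr11:40755287-40755536, minus strand: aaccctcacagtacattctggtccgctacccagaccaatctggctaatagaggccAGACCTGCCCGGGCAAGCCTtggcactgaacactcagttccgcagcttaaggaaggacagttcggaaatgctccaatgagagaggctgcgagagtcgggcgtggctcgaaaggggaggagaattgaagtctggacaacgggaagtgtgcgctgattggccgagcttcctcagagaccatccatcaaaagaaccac
Cdkn1a, chr17:29090729-29090978, plus strand: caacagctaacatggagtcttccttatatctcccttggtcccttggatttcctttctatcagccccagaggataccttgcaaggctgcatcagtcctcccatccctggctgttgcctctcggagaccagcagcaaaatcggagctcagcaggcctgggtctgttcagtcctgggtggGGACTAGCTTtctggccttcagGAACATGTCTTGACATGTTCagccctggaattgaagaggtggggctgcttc

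Levels are log2 signals less the array's own 75th percentile, and changes are differences of group means of these levels with their standard error. A change passes when its limma p, adjusted over all 30437 probes tested, is under 0.05. The 75th percentile of the signal was 951 to 4258 in KO tumours, against 499.6 to 685 in KO livers, and 512 to 884 in DEN tumours, against 476 to 729 in WT livers. KO tumour replicates 4 to 6 (mice 4 and 5) shared a slide and were the brightest. No slide held more than 1 group, so slide cannot be told apart from the group in any comparison, within a scan day too. Scan day 4 held the WT livers alone, so scan day cannot be told apart from the group in comparisons with WT livers. KO tumours of mice 1 to 3, all KO livers and 3 DEN tumours shared scan day 1. Values within that day are given where they bear on a result.

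Summed linear signals of marker genes differed between the tissues. The 10 hepatocyte markers summed to 424 to 1037 in KO tumours and 3255 to 3796 in KO livers, and to 1708 to 2521 in DEN tumours and 2649 to 3328 in WT livers. The 10 biliary markers summed to 55.9 to 259 in KO tumours and 5.30 to 7.23 in KO livers, and to 17.6 to 47.3 in DEN tumours and 2.12 to 3.73 in WT livers. Marker by marker, 10 hepatocyte markers were called lower and 9 biliary markers higher in KO tumours over KO livers. In DEN tumours over WT livers only 1 hepatocyte marker was called, Cyp2e1, which was lower (-5.19 ± 0.91, adjusted p 0.000729). Of the biliary markers, 4 were called higher there (Prom1, Sox9, Spp1 and Cldn7) and 1 lower (Cftr). Of 10 proliferation markers, 9 were higher in KO tumours than in livers of KO mice and all 10 were higher in KO than in DEN tumours. Of 8 macrophage markers, 7 were higher and 1 lower in KO tumours than in livers of KO mice, and 5 were higher in DEN tumours than in livers of WT mice. Their part in the results below was not tested, and in such bulk samples fewer cells of a type and less RNA per cell cannot be told apart.

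Trp53 itself had its lowest signals in the knockout tissue, in tumours as in livers. Trp53 had log2 levels of -4.60, -4.96, -4.49, -5.35 and -4.13 in KO tumour mice and -6.47, -4.91, -5.91 and -5.01 in KO liver mice. Trp53 levels were -2.75, -2.73, -2.48, -2.65 and -2.64 in DEN tumour mice and -3.85, -3.72, -3.39 and -3.31 in WT liver mice. The probe was well above background on 5 of 6 arrays of KO tumours, 1 of 4 of KO livers, all 7 of DEN tumours and all 4 of WT livers. Every knockout tumour lay below every DEN tumour and every knockout liver below every WT liver. The log2 change was -2.06 ± 0.28, adjusted p 2.17e-05 for KO over DEN tumours and -2.0 ± 0.31, adjusted p 0.00133 for KO over WT livers. Within scan day 1 the tumour change was -1.82. With normexp background correction and quantile normalization, which add an offset that shrinks changes of dim probes, the changes were -0.72 between the tumours and -0.45 between the livers. Trp53 was also higher in tumours than in livers of the same genotype, by 0.87 ± 0.30, adjusted p 0.0225 in KO tumours over KO livers and 0.92 ± 0.30, adjusted p 0.0363 in DEN tumours over WT livers. The KO tumour and KO liver mice overlapped, 3 of 4 KO liver arrays were not well above background, and that call ended with normexp and quantile values (0.14, adjusted p 0.251) and within scan day 1 (adjusted p 0.065).

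The lead probes of the relatives Trp63 and Trp73 moved in opposite directions in the 2 kinds of tumour. They were lower in KO tumours than in livers of KO mice and higher in DEN tumours than in livers of WT mice. Trp63 had log2 levels of 1.75, 1.46, 1.58, 1.10 and 1.20 in KO tumour mice and 2.54, 2.37, 2.51 and 2.15 in KO liver mice. Trp63 levels were 2.35, 2.17, 2.43, 1.95 and 2.35 in DEN tumour mice and 0.95, 1.35, 1.67 and 1.82 in WT liver mice. No mouse of a tumour group overlapped with a mouse of its liver group. The Trp63 change was -0.97 ± 0.20, adjusted p 0.00067 in KO tumours over KO livers and 0.80 ± 0.20, adjusted p 0.0089 in DEN tumours over WT livers, and the difference of these effects was -1.77 ± 0.28, adjusted p 0.000394. Its level in KO livers also exceeded that in WT livers (0.94 ± 0.21, adjusted p 0.0133), which did not pass with normexp and quantile values (0.51, adjusted p 0.0954), and lower in KO than in DEN tumours (-0.83 ± 0.19, adjusted p 0.00147).

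Trp73 had log2 levels of -1.97, -2.05, -1.98, -1.75 and -2.56 in KO tumour mice and -1.33, -1.36, -1.27 and -1.21 in KO liver mice. Trp73 levels were -0.60, -0.30, 0.18, -0.30 and -0.38 in DEN tumour mice and -1.50, -1.39, -0.97 and -0.65 in WT liver mice. KO tumours lay lowest and DEN tumours highest, with no overlap with each other or with the liver of their genotype. The Trp73 change was -0.77 ± 0.21, adjusted p 0.00593 in KO tumours over KO livers, 0.85 ± 0.21, adjusted p 0.00887 in DEN tumours over WT livers and -1.78 ± 0.20, adjusted p 3.7e-06 in KO over DEN tumours. The tumour effects differed by -1.62 ± 0.30, adjusted p 0.00104. In livers Trp73 did not pass (-0.16 ± 0.22, adjusted p 0.719).

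These directions rest on the lead probes. The Trp63 lead probe, which holds the CAG repeats shown above, was well above background on all 21 arrays, whereas the other 3 Trp63 probes were so on 9, 0 and 0 arrays. Only 3 probes of the array have 6 or more CAG repeats in a row. The cut of 6 is the Trp63 lead probe's own count, and that probe is among the 3. All 3 were above background on all 21 arrays, against 45.7% of all probes. The lead probe was itself picked for its signal, and whether the repeat bears on the signal was not tested. The second Trp73 probe was above background on 5 of 21 arrays and the third on 2, against 21 of 21 for the lead probe. Of 5 markers of basal and squamous cells, in which p63 is a defining factor, 2 in KO tumours, 3 in KO livers, 0 in DEN tumours and 3 in WT livers were above background on no array of the group. Whether the lead probes read Trp63 and Trp73 transcripts was not tested.

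**Figure D1:**
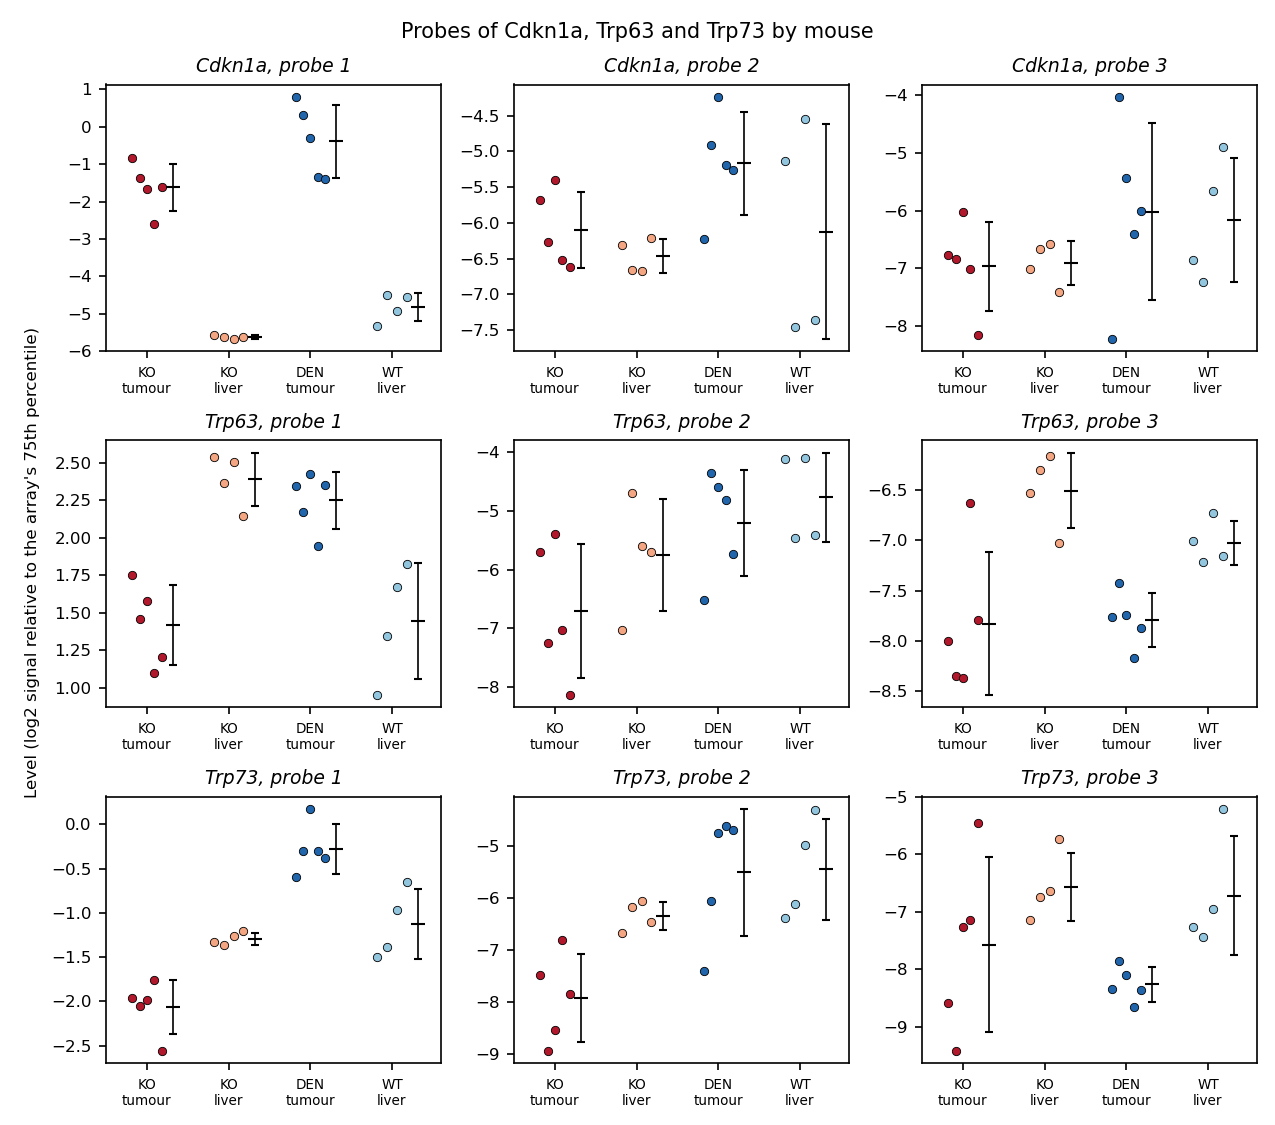
Levels of 3 probes each of Cdkn1a, Trp63 and Trp73 by mouse (y axis, log2 signal, array's 75th percentile subtracted, x axis, the 4 groups). Points are mice (n = 5, 4, 5 and 4), bars give the mean with its SD. On each lead probe (probe 1) the mice of a tumour group and of its liver group do not overlap, and the other probes shown were above background on at most 11 of 21 arrays.

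Of the p53 inhibitors, Mdm2 passed in no comparison and Mdm4 in 1. Mdm2 had log2 levels of 3.02, 3.31, 2.66, 2.56 and 2.66 in KO tumour mice and 3.02, 3.08, 2.94 and 3.36 in KO liver mice. Mdm2 levels were 3.46, 2.90, 3.01, 2.85 and 3.73 in DEN tumour mice and 3.12, 3.17, 2.52 and 2.58 in WT liver mice. The groups overlapped in every comparison, and the log2 changes were -0.26 ± 0.23, adjusted p 0.365 in KO tumours over KO livers, 0.34 ± 0.23, adjusted p 0.325 in DEN tumours over WT livers, -0.35 ± 0.22, adjusted p 0.181 in KO over DEN tumours and 0.25 ± 0.24, adjusted p 0.59 in KO over WT livers. Mdm4 had log2 levels of -2.83, -3.73, -2.61, -3.79 and -4.08 in KO tumour mice and -3.58, -3.88, -3.80 and -3.81 in KO liver mice. Mdm4 levels were -4.48, -4.81, -4.10, -4.31 and -4.72 in DEN tumour mice and -4.42, -3.13, -3.54 and -3.82 in WT liver mice. Averaged by mouse, KO tumours lay just above DEN tumours (-4.08 in the lowest KO and -4.10 in the highest DEN tumour mouse), but single tumours overlapped, with -4.09 and -4.07 in the tumours of KO tumour mouse 5 and -4.07 in the highest DEN tumour. The Mdm4 change between the tumour types was 1.08 ± 0.29, adjusted p 0.00467, and it did not pass in the other comparisons, among them KO over WT livers (-0.04 ± 0.32, adjusted p 0.959). A second Mdm4 probe was above background on 5 of 6 KO tumour arrays and no KO liver array, so its fold in KO tumours over KO livers is only a bound, at least 1.18-fold higher (adjusted p 0.000258), where the lead probe read 0.36 ± 0.31.

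Set against liver of the same genotype, both kinds of tumour had higher levels of Trp53 and of the target genes Cdkn1a, Btg2, Psrc1, Phlda3, Tnfrsf10b, Pmaip1, Apaf1 and Zmat3. With normexp and quantile values the call ended for Trp53 in KO tumours (adjusted p 0.251) and for Apaf1 in DEN tumours (adjusted p 0.118). In KO tumours over KO livers, 11 of the 31 genes rose and 8 fell, with a median log2 change of 0.33 against -0.20 over all probes. At the same threshold 50.3% of all probes were called, 21.4% higher and 28.8% lower. Within scan day 1, 10 of the 31 rose and 8 fell, where 54.2% of all probes were called. In DEN tumours over WT livers, 12 rose and 2 fell, with a median of 0.44 against 0.04 over all probes, of which 21% were called, 10.3% higher and 10.7% lower. Mice did not overlap for 15 genes in the first comparison and 14 in the second, against 42.0% and 23.5% of all probes.

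The comparisons share no mice. Of the genes, 9 were called higher in both, which is 81.8% of the 11 in KO tumours and 75% of the 12 in DEN tumours. Over all probes, 24.9% of those called higher in KO tumours over KO livers were also higher in DEN tumours over WT livers, and 51.7% the other way round. The tumour effects differed between KO and DEN tumours for 11 of 31 genes, 3 upward and 8 downward in KO tumours, against 30.0% of all probes (12.3% upward and 17.6% downward). WT livers were untreated, so in DEN tumours the tumour state and DEN treatment cannot be told apart. No gene was called lower in both, 2 (Trp63 and Trp73) were lower in KO and higher in DEN tumours, and 9 were called in neither.

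With slide as a random block, 7 rose and 3 fell in KO tumours (Cdkn1a, Btg2, Psrc1, Phlda3, Tnfrsf10b, Pmaip1 and Apaf1 higher, and Trp63, Perp and Ei24 lower). In DEN tumours 5 rose with that block, Cdkn1a, Btg2, Psrc1, Phlda3 and Tnfrsf10b. In the same fits 26.9% and 2.08% of all probes were called.

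**Figure D2:**
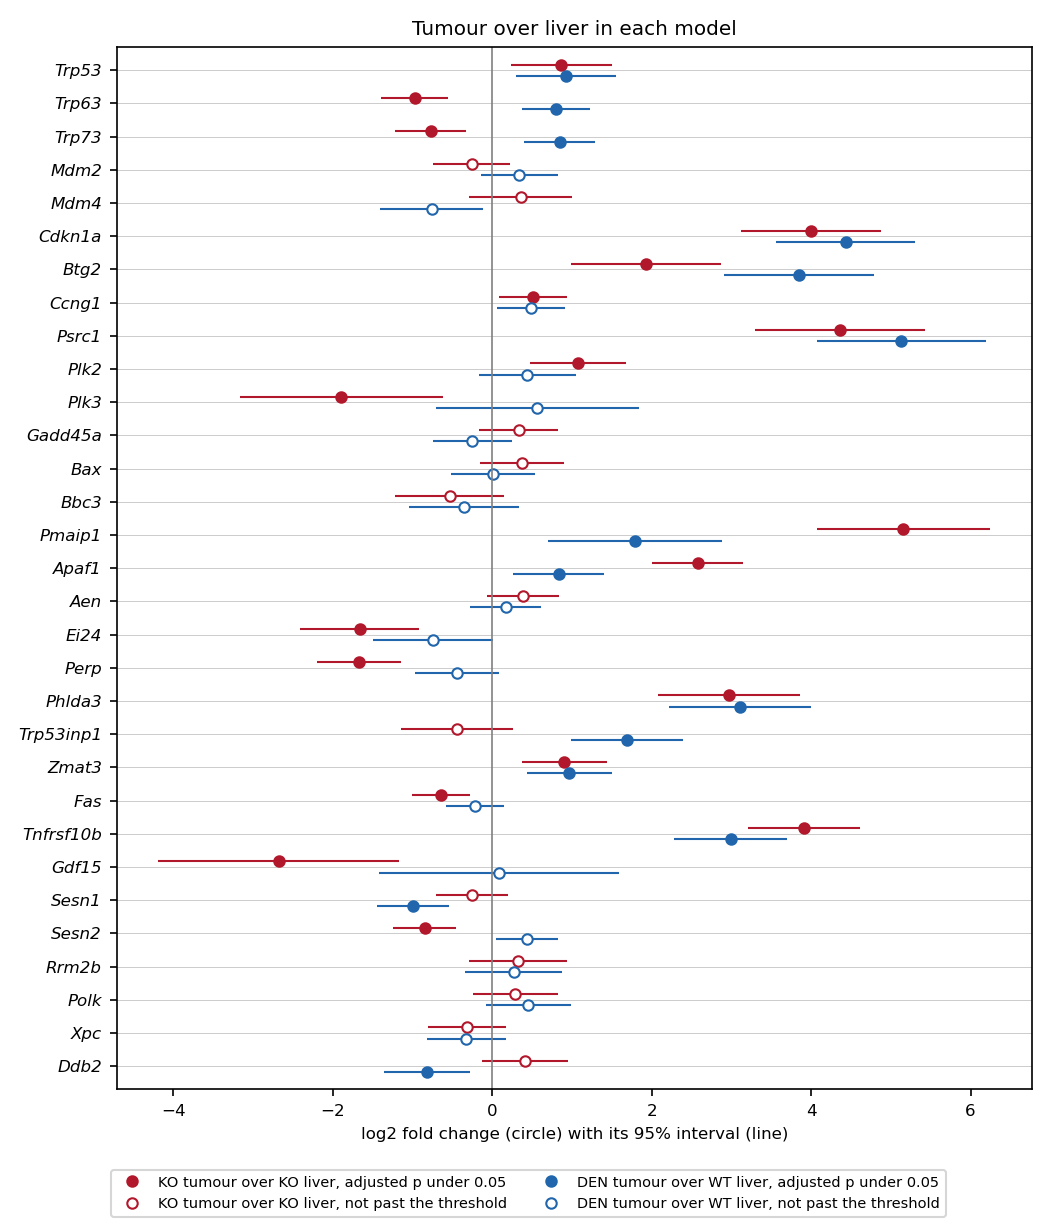
Log2 fold changes of the 31 tested genes (rows, by role) in KO tumours over KO livers (red, upper of each pair) and DEN tumours over WT livers (blue). Circles are changes and lines their 95% intervals, and filled circles passed the adjusted p of 0.05. Cdkn1a, Psrc1, Phlda3 and Tnfrsf10b lie far to the right in both, while Trp63 and Trp73 lie left of 0 in KO tumours and right of it in DEN tumours.

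Among the genes of cell cycle arrest, Cdkn1a, Psrc1 and Btg2 rose in both tumour types. Cdkn1a encodes p21, an inhibitor of cyclin-dependent kinases and the best known p53 target. Cdkn1a had log2 levels of -0.84, -1.38, -1.68, -2.60 and -1.61 in KO tumour mice and -5.57, -5.62, -5.68 and -5.61 in KO liver mice. Cdkn1a levels were 0.80, 0.30, -0.31, -1.33 and -1.40 in DEN tumour mice and -5.32, -4.50, -4.92 and -4.54 in WT liver mice. All tumours lay above all livers, in both genotypes. No KO liver array was well above background, so the fold in KO tumours is a bound, at least 8.49-fold higher (fitted log2 change 4.00 ± 0.41, adjusted p 1e-06). Such a bound sets the brighter group's mean against the lowest signal that counted as above background, or the dim probe's own where that was higher. It holds for the percentile-scaled values only. In DEN tumours the change was 4.43 ± 0.41, adjusted p 2.8e-06, with 2 of 4 WT liver arrays above background. With normexp and quantile values the changes were smaller, 1.66 and 2.59, both still past the threshold.

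Between the tumour types Cdkn1a was lower in KO than in DEN tumours (-1.23 ± 0.39, adjusted p 0.0135), with overlapping mice. That call ended with the slide block (adjusted p 0.216) and without KO tumour replicates 4 to 6 (-0.91, adjusted p 0.0814). In KO over WT livers it read -0.80 ± 0.44, adjusted p 0.297, with no KO liver array and 2 of 4 WT liver arrays above background. The other 2 Cdkn1a probes were dim, above background on 11 and 7 of 21 arrays, and did not pass in any comparison (0.37 and -0.05 in KO tumours over KO livers, 0.96 and 0.15 in DEN tumours over WT livers).

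Psrc1 encodes a protein of the mitotic spindle. Psrc1 had log2 levels of -2.10, -0.52, -2.72, -2.72 and -3.40 in KO tumour mice and -6.69, -6.42, -6.32 and -7.17 in KO liver mice. Psrc1 levels were -1.16, -2.02, -0.66, -0.54 and -0.81 in DEN tumour mice and -6.74, -6.85, -6.12 and -4.96 in WT liver mice. No liver array of either genotype was well above background, and every tumour array was. Psrc1 was at least 5.34-fold higher in KO tumours than in livers of KO mice (fitted change 4.36 ± 0.50, adjusted p 2.86e-06) and at least 16.4-fold higher in DEN tumours than in livers of WT mice (5.13 ± 0.50, adjusted p 4.39e-06). Normexp and quantile values gave smaller log2 changes of 1.51 and 2.32, both past the threshold, so these bounds hold for the percentile-scaled values. KO tumours overlapped with DEN tumours and were lower on average (-1.25 ± 0.47, adjusted p 0.0336, within scan day 1 -1.34, adjusted p 0.0908, and without KO tumour replicates 4 to 6 -0.74, adjusted p 0.226).

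Btg2 encodes an anti-proliferative cofactor of mRNA decay. Btg2 had log2 levels of 0.76, 0.34, 1.43, 2.19 and 1.35 in KO tumour mice and -0.61, -0.0049, -2.06 and -0.18 in KO liver mice. Btg2 levels were 2.82, 4.21, 3.22, 2.48 and 2.73 in DEN tumour mice and -1.26, -0.66, -0.77 and -0.32 in WT liver mice. Livers of both genotypes lay lowest, KO tumours in between and DEN tumours highest, without overlap. It rose by 1.93 ± 0.45, adjusted p 0.00177 in KO tumours and by 3.84 ± 0.45, adjusted p 2.01e-05 in DEN tumours, each over its liver. The smaller effect in KO tumours differed from that in DEN tumours by -1.92 ± 0.63, adjusted p 0.0306, and KO tumours were lower than DEN tumours, with a change of -1.88 ± 0.42, adjusted p 0.00131.

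Gadd45a, a stress sensor that binds several kinases, separated the tumour types instead. Gadd45a had log2 levels of 1.80, 1.43, 1.59, 1.02 and 0.97 in KO tumour mice and 0.83, 1.25, 1.11 and 0.94 in KO liver mice. Gadd45a levels were 0.19, 0.54, -0.55, 0.26 and 0.28 in DEN tumour mice and 0.37, 0.62, 0.60 and -0.02 in WT liver mice. Every KO tumour lay above every DEN tumour, and the change was 1.22 ± 0.22, adjusted p 0.000253. As scaled over all mice neither tumour passed over its own liver (0.33 ± 0.24, adjusted p 0.256 in KO and -0.25 ± 0.24, adjusted p 0.507 in DEN tumours), and KO livers lay above WT livers without overlap but did not pass (0.64 ± 0.25, adjusted p 0.128). Within scan day 1 KO tumours passed over KO livers (0.58, adjusted p 0.0339).

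Cyclin G1 and the polo-like kinases completed the arrest genes. Ccng1 had log2 levels of -0.66 to 0.29 in KO tumour mice and -0.83 to -0.52 in KO liver mice, and of -0.18 to 0.23 in DEN tumour mice and -0.63 to -0.24 in WT liver mice. Ccng1 just passed in KO tumours over KO livers (0.51 ± 0.20, adjusted p 0.0451) with overlapping mice, and did not within scan day 1 (adjusted p 0.142). Its change in DEN tumours over WT livers was of similar size (0.48 ± 0.20, adjusted p 0.104). Plk2, a kinase of stress responses, rose by 1.08 ± 0.29, adjusted p 0.00488 in KO tumours and read 0.44 ± 0.29, adjusted p 0.305 in DEN tumours. Plk3 fell by 1.89 ± 0.60 on the log2 scale in KO tumours over KO livers (adjusted p 0.0151) and was lower in KO than in DEN tumours (-1.57 ± 0.57, adjusted p 0.0274). It varied widely within groups, with levels of -0.38 to 0.89 in KO tumour, 0.31 to 3.12 in KO liver, 0.09 to 3.40 in DEN tumour and 0.73 to 1.92 in WT liver mice.

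**Figure D3:**
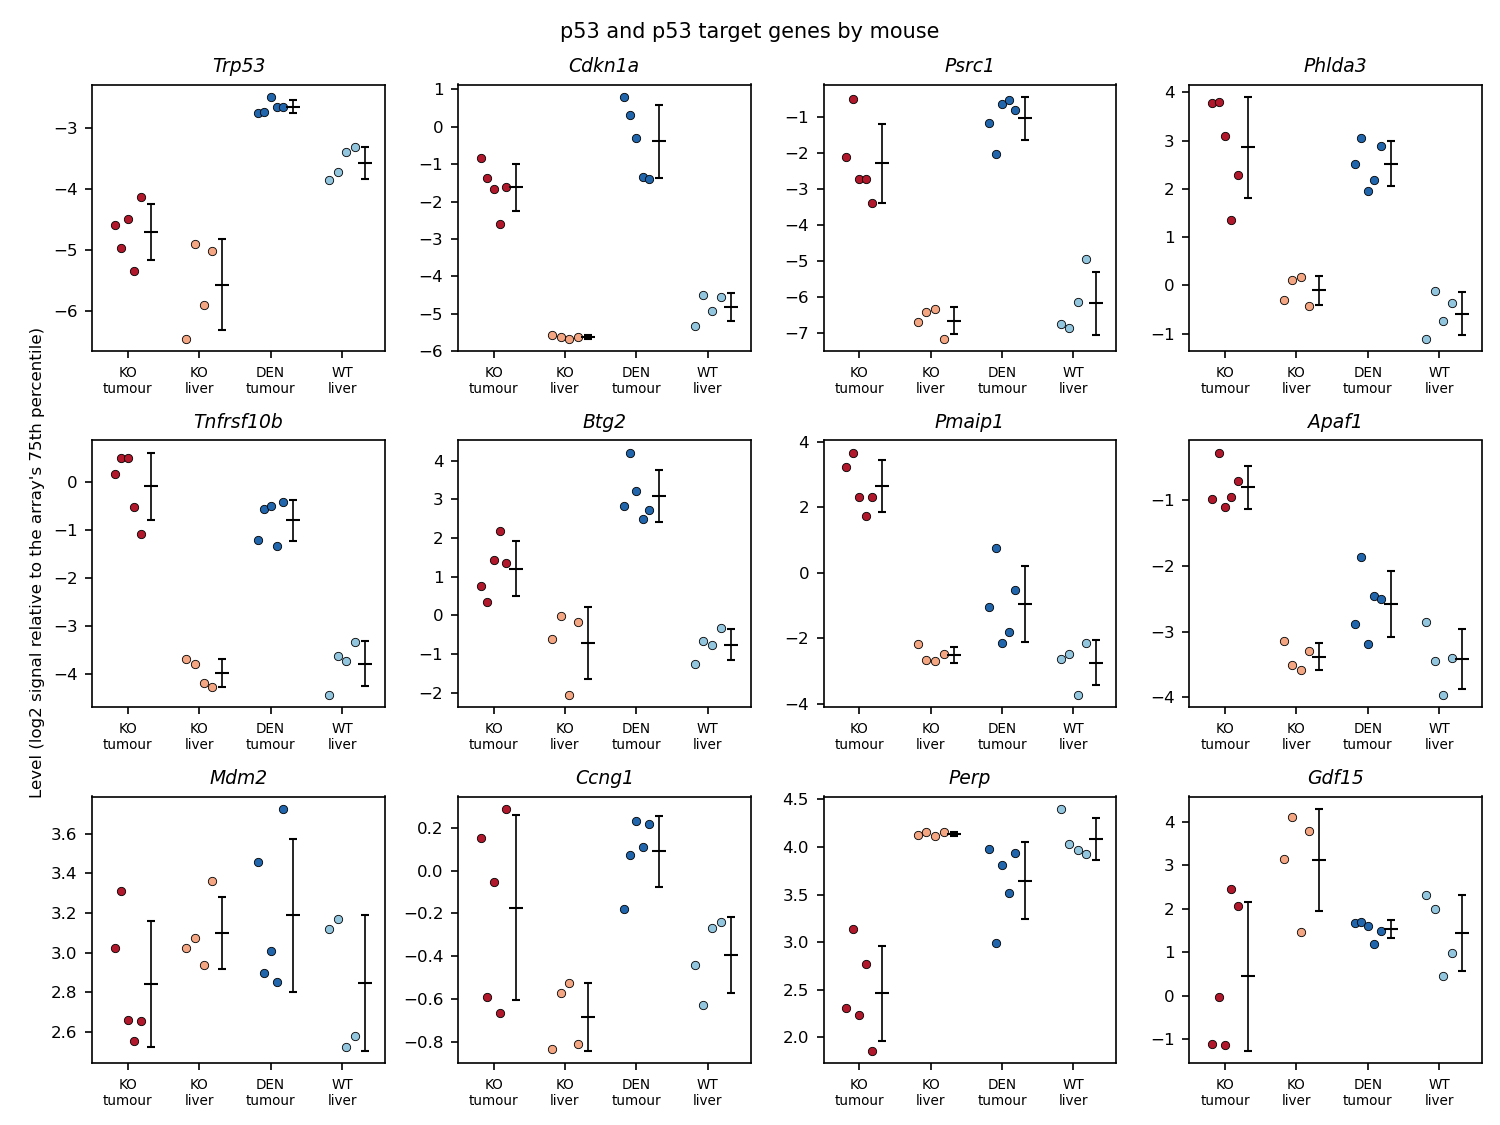
Levels of Trp53 and 11 p53 target genes by mouse (y axis, log2 signal, array's 75th percentile subtracted, x axis, the 4 groups). Points are mice (n = 5, 4, 5 and 4), and bars give the mean with its SD. Cdkn1a, Psrc1, Phlda3, Tnfrsf10b and Btg2 are high in both tumour groups, Pmaip1 and Apaf1 are highest in KO tumours, Mdm2 overlaps throughout, and Gdf15 splits the KO tumours into mice 1 to 3 (low) and mice 4 and 5.

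Genes of cell death signalling rose in part in both tumour types, and Pmaip1 and Apaf1 rose more in KO than in DEN tumours. Tnfrsf10b is the mouse death receptor for the ligand TRAIL. Tnfrsf10b had log2 levels of 0.17, 0.50, 0.51, -0.52 and -1.09 in KO tumour mice and -3.70, -3.79, -4.20 and -4.28 in KO liver mice. Tnfrsf10b levels were -1.21, -0.55, -0.50, -1.33 and -0.41 in DEN tumour mice and -4.45, -3.63, -3.74 and -3.34 in WT liver mice. Tumours and livers did not overlap in either genotype, and 3 of 4 KO liver arrays were above background. The change was 3.91 ± 0.33, adjusted p 1.74e-07 in KO and 2.99 ± 0.33, adjusted p 1.38e-05 in DEN tumours, and 0.71 ± 0.31, adjusted p 0.0638 between the tumour types. That last difference passed within scan day 1 (1.23, adjusted p 0.0444), with normexp and quantile values (0.68, adjusted p 0.025) and without KO tumour replicates 4 to 6 (1.19, adjusted p 0.00214). With normexp and quantile values the changes over liver were 2.40 and 1.87.

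Fas, the receptor for Fas ligand, did not follow Tnfrsf10b. Fas had log2 levels of 1.26, 1.55, 1.33, 1.32 and 1.58 in KO tumour mice and 1.95, 1.91, 2.37 and 1.94 in KO liver mice. Fas levels were 1.53, 1.33, 1.09, 1.20 and 1.34 in DEN tumour mice and 1.86, 1.48, 1.15 and 1.56 in WT liver mice. Every KO tumour lay below every KO liver. Fas was lower there, with a change of -0.64 ± 0.17, adjusted p 0.00537, which did not pass with normexp and quantile values (-0.28, adjusted p 0.0799), and read -0.21 ± 0.17, adjusted p 0.423 in DEN tumours over WT livers.

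Pmaip1 encodes Noxa, a small BH3 protein that neutralises survival proteins of the Bcl2 family. Pmaip1 had log2 levels of 3.23, 3.67, 2.32, 1.73 and 2.32 in KO tumour mice and -2.16, -2.68, -2.69 and -2.48 in KO liver mice. Pmaip1 levels were -1.06, 0.77, -2.14, -1.82 and -0.53 in DEN tumour mice and -2.63, -2.49, -3.74 and -2.13 in WT liver mice. KO tumours stood above all other mice, and the DEN tumours ranged widely and just touched the WT livers. The change was 5.16 ± 0.52, adjusted p 7.14e-07 in KO tumours over KO livers and 1.79 ± 0.52, adjusted p 0.0204 in DEN tumours over WT livers. KO tumours exceeded DEN tumours by 3.61 ± 0.49, adjusted p 1.94e-05, and 3.68 within scan day 1, and the tumour effects differed by 3.36 ± 0.73, adjusted p 0.00303.

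Apaf1, the scaffold of the apoptosome that activates caspase 9, had a similar order. Apaf1 had log2 levels of -0.98, -0.27, -1.11, -0.95 and -0.70 in KO tumour mice and -3.14, -3.50, -3.58 and -3.29 in KO liver mice. Apaf1 levels were -2.89, -1.87, -3.19, -2.45 and -2.50 in DEN tumour mice and -2.85, -3.44, -3.97 and -3.40 in WT liver mice. KO tumours overlapped with no other group. Apaf1 rose by 2.58 ± 0.27, adjusted p 1.07e-06 in KO tumours over KO livers, and KO tumours exceeded DEN tumours by 1.78 ± 0.25, adjusted p 3.23e-05. In DEN tumours over WT livers, whose mice overlapped, it rose by 0.84 ± 0.27, adjusted p 0.0359, which ended with normexp and quantile values (0.38, adjusted p 0.118). The tumour effects differed by 1.74 ± 0.38, adjusted p 0.00316.

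Bax and Bbc3, the pore-forming protein and the BH3 protein Puma of the same mitochondrial route, did not pass in any comparison as scaled here. With normexp and quantile values Bax passed in KO tumours over KO livers (0.69, adjusted p 0.00531), in KO over DEN tumours (0.46, adjusted p 0.0394) and for the difference of the effects (adjusted p 0.0434). Bax read 0.38 ± 0.25, adjusted p 0.222 in KO tumours over KO livers and 0.01 ± 0.25, adjusted p 0.986 in DEN tumours over WT livers. Bbc3 read -0.53 ± 0.32, adjusted p 0.183 and -0.35 ± 0.32, adjusted p 0.491 in the same comparisons. The nuclease gene Aen was lower in KO than in DEN tumours (-0.49 ± 0.20, adjusted p 0.0458), which did not pass with normexp and quantile values (-0.31, adjusted p 0.109). It did not pass in KO tumours over KO livers (0.38 ± 0.21, adjusted p 0.143) or in DEN tumours over WT livers (0.17 ± 0.21, adjusted p 0.632). Normexp and quantile values did call it higher in KO tumours over KO livers (0.60, adjusted p 0.00639) and lower in KO over WT livers (-0.82, adjusted p 0.0086), where the percentile scaling gave -0.71 ± 0.22, adjusted p 0.061.

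Perp and Ei24, membrane proteins linked to cell death, fell in KO tumours. Perp is also a component of desmosomes. Perp had log2 levels of 2.31, 3.14, 2.24, 2.77 and 1.86 in KO tumour mice and 4.12, 4.16, 4.11 and 4.16 in KO liver mice. Perp levels were 3.98, 2.99, 3.81, 3.52 and 3.93 in DEN tumour mice and 4.40, 4.03, 3.97 and 3.93 in WT liver mice. The KO livers were tightly grouped and every KO tumour lay below them, with a change of -1.67 ± 0.25, adjusted p 3.31e-05. In DEN tumours over WT livers Perp read -0.44 ± 0.25, adjusted p 0.239, and the effects differed by -1.24 ± 0.35, adjusted p 0.0149. KO tumours were lower than DEN tumours, with a change of -1.18 ± 0.23, adjusted p 0.000513, with overlap at KO tumour mouse 2 and DEN tumour mouse 2.

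Ei24 encodes a protein of the endoplasmic reticulum. Ei24 had log2 levels of -2.66, -2.26, -1.23, -1.06 and -0.41 in KO tumour mice and 0.09, 0.07, 0.47 and -0.07 in KO liver mice. Ei24 levels were 0.06, 0.34, -0.05, -0.36 and -0.62 in DEN tumour mice and 0.51, 0.42, 0.80 and 0.72 in WT liver mice. KO tumours lay below all KO livers, with a change of -1.66 ± 0.36, adjusted p 0.00091, and mice 1 and 2 were lowest. Within scan day 1 it was -2.19. Ei24 was lower in KO than in DEN tumours, with a change of -1.40 ± 0.34, adjusted p 0.0022, and did not pass in DEN tumours over WT livers (-0.74 ± 0.36, adjusted p 0.157).

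Phlda3, a lipid-binding inhibitor of the kinase Akt, rose in both tumour types. Phlda3 had log2 levels of 3.78, 3.80, 3.09, 1.36 and 2.30 in KO tumour mice and -0.29, 0.12, 0.18 and -0.42 in KO liver mice. Phlda3 levels were 2.52, 3.06, 1.96, 2.19 and 2.89 in DEN tumour mice and -1.11, -0.11, -0.74 and -0.37 in WT liver mice. All tumours lay above all livers. The change was 2.97 ± 0.42, adjusted p 2.03e-05 in KO and 3.11 ± 0.42, adjusted p 8.37e-05 in DEN tumours. KO tumours of mice 4 and 5 were the lowest of their group, and within scan day 1, which holds only mice 1 to 3, the KO change was 3.66. Zmat3, an RNA-binding zinc finger protein, rose by 0.91 ± 0.25, adjusted p 0.00638 in KO tumours and 0.97 ± 0.25, adjusted p 0.0111 in DEN tumours. For neither gene did the effects pass as different (-0.14 ± 0.59, adjusted p 0.882 for Phlda3 and -0.06 ± 0.35, adjusted p 0.912 for Zmat3).

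Trp53inp1 encodes a stress protein that promotes p53 activity and autophagy. Trp53inp1 had log2 levels of 2.77, 3.03, 2.94, 2.36 and 3.21 in KO tumour mice and 3.18, 3.40, 2.54 and 4.09 in KO liver mice. Trp53inp1 levels were 4.03, 4.60, 3.68, 3.07 and 3.31 in DEN tumour mice and 2.02, 2.36, 1.52 and 2.29 in WT liver mice. WT livers lay below all KO livers and all DEN tumours. Trp53inp1 rose by 1.69 ± 0.33, adjusted p 0.00168 in DEN tumours over WT livers and was higher by 1.26 ± 0.35, adjusted p 0.0354 in KO than in livers of WT mice, while KO tumours over KO livers read -0.44 ± 0.33, adjusted p 0.28. The call between the livers ended with normexp and quantile values (1.02, adjusted p 0.0806). Its second probe, above background on all 21 arrays, read 0.14 in DEN tumours over WT livers and -0.44 in KO over WT livers and passed in neither, so the probes disagree.

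Of the genes of metabolic stress and secretion, Sesn2 and Gdf15 fell in KO tumours and Sesn1 fell in DEN tumours. Sestrins restrain the growth kinase mTORC1. Sesn2 had log2 levels of 0.62, 0.25, 0.38, 0.94 and 0.12 in KO tumour mice and 1.10, 1.40, 1.14 and 1.60 in KO liver mice. Sesn2 levels were 1.39, 1.35, 1.18, 1.0 and 1.15 in DEN tumour mice and 0.64, 0.67, 0.83 and 0.98 in WT liver mice. KO tumours lay below KO livers without overlap. They lay below DEN tumours when averaged by mouse, but single tumours overlapped, with 0.94 in the highest KO tumour and 0.83 and 0.85 in the lowest DEN tumours. Sesn2 was lower, with a change of -0.85 ± 0.19, adjusted p 0.00111 in KO tumours over KO livers and of -0.75 ± 0.17, adjusted p 0.00173 in KO over DEN tumours. In DEN tumours over WT livers it read 0.44 ± 0.19, adjusted p 0.108, and the effects differed by -1.28 ± 0.26, adjusted p 0.00205.

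Sesn1 had log2 levels of 0.71, 0.42, 0.97, 0.42 and 1.29 in KO tumour mice and 0.79, 1.20, 1.26 and 0.82 in KO liver mice. Sesn1 levels were 0.40, -0.20, -0.28, 0.04 and -0.01 in DEN tumour mice and 1.15, 1.20, 0.95 and 0.65 in WT liver mice. Here the DEN tumours lay below the mice of all other groups. Sesn1 was lower, with a change of -1.0 ± 0.21, adjusted p 0.00326 in DEN tumours over WT livers and higher by 0.78 ± 0.20, adjusted p 0.00386 in KO over DEN tumours, which ended within scan day 1 (0.56, adjusted p 0.0801).

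Gdf15 encodes a secreted stress hormone of the TGF-beta family. Gdf15 had log2 levels of -1.12, -0.04, -1.13, 2.46 and 2.07 in KO tumour mice and 3.14, 4.12, 1.47 and 3.78 in KO liver mice. Gdf15 levels were 1.67, 1.70, 1.59, 1.19 and 1.48 in DEN tumour mice and 2.33, 2.01, 0.46 and 0.99 in WT liver mice. KO tumours of mice 1 to 3 lay below all other mice, and those of mice 4 and 5, scanned on another day, within the range of the other groups. The change was -2.68 ± 0.71, adjusted p 0.00492 in KO tumours over KO livers and -3.89 within scan day 1. In DEN tumours over WT livers it was 0.08 ± 0.71, adjusted p 0.953, and KO livers over WT livers read 1.68 ± 0.75, adjusted p 0.19. KO over DEN tumours read -1.08 ± 0.67, adjusted p 0.183, and within scan day 1 the change passed (-2.45, adjusted p 0.00904).

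Of the 4 genes of DNA repair, Ddb2 and Rrm2b were higher in KO than in DEN tumours, and none passed in KO tumours over KO livers. Ddb2 recognises ultraviolet lesions for excision repair. Ddb2 had log2 levels of -1.35, -1.46, -0.50, -0.82 and -1.34 in KO tumour mice and -1.34, -1.47, -1.45 and -1.76 in KO liver mice. Ddb2 levels were -2.01, -1.77, -3.00, -2.11 and -2.14 in DEN tumour mice and -1.82, -1.39, -1.07 and -1.28 in WT liver mice. DEN tumours were low, with every KO tumour above them. Ddb2 fell by 0.82 ± 0.26 on the log2 scale in DEN tumours over WT livers (adjusted p 0.0324) and was higher by 1.11 ± 0.24, adjusted p 0.00107 in KO over DEN tumours. It read 0.41 ± 0.26, adjusted p 0.197 in KO tumours over KO livers, and the effects differed by 1.23 ± 0.36, adjusted p 0.0184.

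Rrm2b is the p53-regulated subunit of ribonucleotide reductase, which supplies nucleotides for repair. Rrm2b had log2 levels of -3.00, -2.61, -3.99, -2.55 and -2.33 in KO tumour mice and -3.25, -3.09, -3.07 and -3.46 in KO liver mice. Rrm2b levels were -3.97, -4.04, -4.05, -4.29 and -4.17 in DEN tumour mice and -4.50, -3.65, -4.78 and -4.55 in WT liver mice. Both knockout groups lay above their counterparts with intact Trp53, except KO tumour mouse 3. Rrm2b was higher by 1.21 ± 0.27, adjusted p 0.00143 in KO over DEN tumours and by 1.15 ± 0.31, adjusted p 0.0289 in KO over WT livers. Neither tumour passed over its liver (0.32 ± 0.29, adjusted p 0.374 in KO and 0.27 ± 0.29, adjusted p 0.572 in DEN tumours). Xpc, a damage sensor, and Polk, a DNA polymerase that copies past lesions, passed in no comparison with their lead probes. A dimmer second Polk probe was lower in KO than in DEN tumours (-1.55, adjusted p 0.000115), where the lead probe read -0.33 ± 0.24, adjusted p 0.243.

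KO tumours were then set against DEN tumours directly, and KO livers against WT livers, to compare tissue with and without Trp53. The tumour groups also differ in DEN treatment and in tumour label, so in tumours the genotype cannot be told apart from either. In KO over DEN tumours, 7 of 31 genes were higher and 12 lower, with a median change of -0.33 against -0.31 over all probes, of which 55.5% were called, 19.1% higher and 36.4% lower. Higher were Pmaip1, Apaf1, Gadd45a, Ddb2, Rrm2b, Sesn1 and Mdm4. Lower were Trp53, Trp63, Trp73, Perp, Btg2, Sesn2, Ei24, Cdkn1a, Trp53inp1 (-0.88 ± 0.31, adjusted p 0.0245), Plk3, Psrc1 and Aen. The Trp53inp1 call ended with normexp and quantile values (adjusted p 0.151) and within scan day 1 (adjusted p 0.071). It also ended without KO tumour replicates 4 to 6 (adjusted p 0.062). Mice did not overlap for 11 genes, against 30.7% of all probes. With normexp and quantile values 9 were higher and 10 lower, 51.3% of all probes were called, and the median over all probes was -0.03.

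With slide as a random block 7 were higher and 7 lower, against 35.8% of all probes called in that fit. The calls that ended were those of Cdkn1a, Trp53inp1, Psrc1, Aen and Plk3.

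In KO over WT livers, 4 of 31 genes were called, against 8.12% of all probes (1.65% higher and 6.46% lower). Trp53 fell and Trp63, Rrm2b and Trp53inp1 rose. The median change was 0.03 against -0.06 over all probes, and mice did not overlap for 10 genes, against 27.4% of all probes. With normexp and quantile values 1 was higher and 2 lower, against 7.46% of all probes called. The well known targets Cdkn1a, Mdm2, Ccng1 (-0.29 ± 0.21, adjusted p 0.46), Bax (-0.10 ± 0.26, adjusted p 0.867) and Phlda3 (0.48 ± 0.44, adjusted p 0.572) did not pass. Leaving out 1 mouse at a time gave 2 to 5 calls, with 2 when KO liver mouse 1 or 2 or WT liver mouse 3 or 4 was left out. With slide as a random block limma called 0 of the 31, of which 3 had an unadjusted p under 0.05. In that fit only 0.0821% of all probes were called. KO and WT livers each filled 1 slide of their own, so slide and genotype cannot be told apart there.

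**Figure D4:**
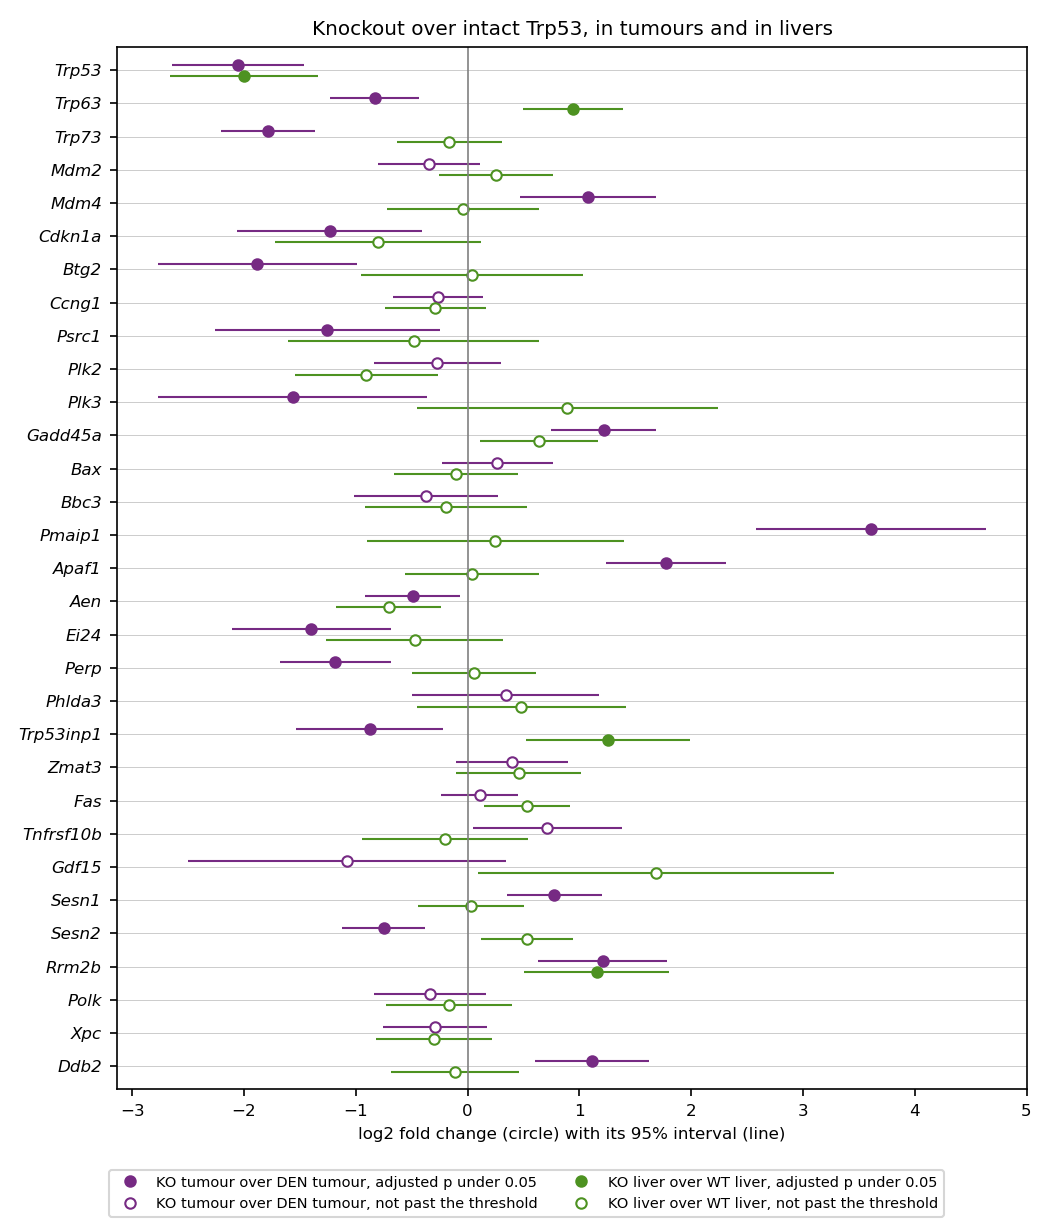
Log2 fold changes of the 31 tested genes (rows, by role) in KO over DEN tumours (purple, upper of each pair) and KO over WT livers (green). Circles are changes and lines their 95% intervals, and filled circles passed the adjusted p of 0.05. Trp53 lies near -2 in both, and Pmaip1 lies far to the right in tumours and near 0 in livers.

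The wider pathway was read from lists of other p53 regulators, further p53 targets and general apoptosis genes. Of 22 regulators, 5 rose and 5 fell in KO tumours over KO livers, and 1 rose and 2 fell in DEN tumours over WT livers. These are 45.5% and 13.6% of the list, below the 50.3% and 21% of all probes called. The riser in both was Cdkn2a, the locus of p16 and the Mdm2 inhibitor p19Arf (4.76 ± 0.45, adjusted p 3.95e-07 in KO and 2.92 ± 0.45, adjusted p 0.000253 in DEN tumours). The checkpoint kinase Chek2 was at least 3.15-fold higher in KO tumours than in livers of KO mice, and the damage protein Trp53bp1 rose by 1.77 ± 0.27, adjusted p 3.93e-05, while the death-associated kinase Dapk1 fell (-1.52 ± 0.22, adjusted p 2.97e-05). In KO over DEN tumours 7 were higher and 7 lower (63.6% of the list, against 55.5% of all probes). Among them were the damage kinase Prkdc (1.86 ± 0.23, adjusted p 8.41e-06) and the checkpoint kinase Chek1 (-1.83 ± 0.30, adjusted p 9.73e-05). The Chek1 probe was dim, above background on 4 of 6 KO tumour and all 7 DEN tumour arrays. Chek1 was also lower in KO than in livers of WT mice (-2.09 ± 0.33, adjusted p 0.00148), with 1 of 4 KO liver and 4 of 4 WT liver arrays above background, and the acetyltransferase Crebbp was higher there (0.85 ± 0.21, adjusted p 0.0204), which its second probe did not show (-0.01).

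Of 29 further p53 targets on the array, 13 rose and 7 fell in KO tumours over KO livers (median 0.37), and 8 rose and 4 fell in DEN tumours over WT livers (median 0.18). Over all probes 21.4% rose and 28.8% fell in the first comparison (median -0.20), and 10.3% and 10.7% in the second (median 0.04). The matrix protein and angiogenesis inhibitor Thbs1 rose in both (5.38 ± 0.54, adjusted p 6.89e-07 in KO and 3.35 ± 0.54, adjusted p 0.000372 in DEN tumours), with 3 of 4 KO liver and 2 of 4 WT liver arrays above background. The transcription factor Klf4 rose by 3.22 ± 0.35, adjusted p 1.49e-06 and 2.60 ± 0.35, adjusted p 7.76e-05 in the same comparisons. Gls2, the liver glutaminase, fell in KO tumours over KO livers (-5.15 ± 0.53, adjusted p 8.49e-07) and was lower in KO than in DEN tumours (-4.55 ± 0.49, adjusted p 3.01e-06). It is also a product of periportal hepatocytes, and all 10 hepatocyte markers were lower in KO tumours than in livers of KO mice. The part of cell composition in this and the other changes of the list was not tested. The antioxidant enzyme Gpx1 fell in both (-2.33 ± 0.28, adjusted p 3.57e-06 in KO and -2.05 ± 0.28, adjusted p 8.17e-05 in DEN tumours). In KO over DEN tumours 12 were higher and 7 lower (65.5% of the list, against 55.5% of all probes). In KO over WT livers 2 were higher and 2 lower (13.8% of the list, against 8.12% of all probes), among them the repressor Bcl6 (-1.80 ± 0.47, adjusted p 0.0271).

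Of 15 apoptosis genes, 4 rose and 4 fell in KO tumours over KO livers, and 1 rose and 2 fell in DEN tumours over WT livers. These are 53.3% and 20% of the list, near the 50.3% and 21% of all probes called. The survival protein Bcl2 (2.72 ± 0.30, adjusted p 1.76e-06), the mitotic inhibitor of apoptosis Birc5 (3.80 ± 0.49, adjusted p 7.47e-06) and the pore protein Bak1 (1.35 ± 0.18, adjusted p 1.45e-05) rose in KO tumours, and the caspase inhibitor Xiap fell (-1.35 ± 0.20, adjusted p 3.83e-05). In DEN tumours the survival gene Bcl2l1 rose (1.03 ± 0.30, adjusted p 0.0212). Casp9, the caspase that Apaf1 activates, fell in both tumour types (-0.45 ± 0.17, adjusted p 0.0312 in KO and -0.84 ± 0.17, adjusted p 0.0019 in DEN tumours). Bcl2, Birc5 and Bak1 were also among the 5 genes higher in KO than in DEN tumours, where 2 were lower. The genes called there are 46.7% of the list, against 55.5% of all probes. In KO over WT livers 1 was lower, Casp8 (-1.18 ± 0.29, adjusted p 0.0208), which is 6.67% of the list, against 8.12% of all probes.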

How the data were processed

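Transcript levels were measured on 21 one-colour microarrays, 1 per sample, in 4 groups. The deposited scanner files give a processed intensity per spot, background-subtracted and spatially detrended with Agilent Feature Extraction 10.7.3.1, per the file headers and the submitters' processing notes. The authors' value table is in log2 units; set against the arrays (lowest correlation with the own array 0.9997), it was the log2 processed intensity, shifted per array and centred per probe on the median, with column medians of -0.57 to 0.30, and it served as an alternative.

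Outlier spots were removed, spots of a probe averaged, and the 75th percentile of the array's 39429 non-control probes was subtracted on the log2 scale. The 30437 probes tested were those well above background on 4 or more of 21 arrays. Tumours of 1 mouse were averaged (18 mice), and limma 3.58.1 in R 4.3.3 fitted 4 group means (lmFit and eBayes, two-sided, Benjamini-Hochberg over all probes, threshold 0.05). The fit was tested on simulated data. The comparisons were KO tumour over KO liver, DEN tumour over WT liver, KO over DEN tumour, KO over WT liver, and the difference of the first 2 effects.

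The genes and lists were chosen with earlier results of these data known. Values in every mouse are given for Trp53, Trp63, Trp73, Mdm2, Mdm4, Cdkn1a and, per comparison, up to 6 higher and 6 lower genes of smallest adjusted p; of each other list up to 3 and 3 could be named. Probe coordinates are mm9, from the array files; promoters are RefSeq's, GRCm38.p6, where 23 of the 32 genes matched. Alternatives were normexp (offset 50) with quantile normalization, median scaling, the authors' values, no filter, single arrays, slide and scan day as blocks, scan day 1 alone, no KO tumour replicates 4 to 6, and leaving out each mouse. Precision is limited by how many arrays each group has.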

Additional observations from a re-analysis of the deposited data

Results flagged for a closer look

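The tumour effect (tumour minus liver of the same genotype, log2) differed between KO and DEN tumours for 11 of 31 genes by limma's test of the difference. Of these, 3 were upward and 8 downward in KO tumours, against 30.0% of all probes (12.3% upward and 17.6% downward). DEN tumours were set against untreated livers, so tumour state and DEN treatment cannot be told apart in their effect. The difference was 3.36 ± 0.73, adjusted p 0.00303 for Pmaip1, 1.74 ± 0.38, adjusted p 0.00316 for Apaf1 and 1.23 ± 0.36, adjusted p 0.0184 for Ddb2. It was -1.77 ± 0.28, adjusted p 0.000394 for Trp63, -1.62 ± 0.30, adjusted p 0.00104 for Trp73, -1.28 ± 0.26, adjusted p 0.00205 for Sesn2 and -2.13 ± 0.47, adjusted p 0.00321 for Trp53inp1. The second Trp53inp1 probe, above background on all 21 arrays, had close means in tumours and livers. They were -2.83 in KO tumours and -2.75 in KO livers, and -2.18 in DEN tumours and -2.31 in WT livers. Perp differed by -1.24 ± 0.35, adjusted p 0.0149, Btg2 by -1.92 ± 0.63, adjusted p 0.0306, Plk3 by -2.46 ± 0.85, adjusted p 0.0388 and Gdf15 by -2.76 ± 1.01, adjusted p 0.0482. With normexp and quantile values 5 were upward and 6 downward, against 29.1% of all probes called. For Trp63 the call held with slide as a random block (adjusted p 0.0342), and for the other 10 it ended. That fit called 3.42% of all probes. The calls for Plk3 and Gdf15 ended with normexp and quantile values too (adjusted p 0.0573 and 0.0672).

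Among 124 groups of 4 or 5 mice, 1 held a mouse far from the rest. Fas read 2.37 in KO liver mouse 3, against 1.91 to 1.95 in the other 3 KO livers, and chance flags about 1 group in 20.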

How the results depend on the processing

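No call for the 31 tested genes changed direction under any alternative. Genes named from the other lists were not examined under the alternatives. The authors' values ended 0 of 67 calls, median scaling 2, no filter 3, single arrays 3, omission of KO tumour replicates 4 to 6 ended 4, and normexp with quantile normalization 9. Scan day as a fixed block and scan day 1 alone, which can be had only for KO tumours over KO livers and over DEN tumours, each ended 5 of 38. Slide as a random block ended 37 of 67. With that block the genes called numbered 10 in KO tumours over KO livers, 5 in DEN tumours over WT livers, 0 in KO over WT livers and 1 for the difference of the effects, in place of 19, 14, 4 and 11. KO over DEN tumours gave 14 in place of 19. Over all probes that block called 26.9%, 2.08%, 0.0821%, 3.42% and 35.8% in these comparisons, in the order given.

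Leaving out each mouse in turn gave 17 to 20 genes in KO tumours over KO livers, 10 to 14 in DEN tumours over WT livers, 16 to 19 in KO over DEN tumours, 2 to 5 in KO over WT livers and 8 to 14 for the difference. The low of 2 came without KO liver mouse 1 or 2 or WT liver mouse 3 or 4. Without KO tumour replicates 4 to 6, which share in the estimate of the spread, 7 genes passed in KO over WT livers. In that fit 13.4% of all probes were called there. Normexp with quantile normalization moved the median over all probes to -0.02 (KO tumours over KO livers), -0.03 (KO over DEN tumours) and -0.01 (difference), in place of -0.20, -0.31 and -0.22. The share of calls over all probes that were higher moved to 47.4% in KO over DEN tumours and 36.8% in KO over WT livers, in place of 34.4% and 20.4%. Median scaling gave 5 upward and 7 downward differences between the effects, against 28.8% of all probes called.

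No paired analysis was possible because no label ties a tumour to a liver. Dim probes, among them Trp53, Cdkn1a and Psrc1 in livers, limit the size of a change to a bound that holds for the percentile-scaled values only.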
